A study of Arabidopsis thaliana with 4 samples.

Results

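The 24 h array compared messenger RNA of Arabidopsis thaliana plants after 24 h of feeding by thrips with that of untreated plants. A clone was included when at least 1 of its spots carried the scanner's good flag, which is flag 3 in the deposited files, and the good spots of a clone were averaged after normalization within the array. Of the 1182 cDNA clones printed, 718 had a value at 24 h. Of these, 673 had at least 2 good spots and 45 had 1, from 1393 good clone spots.

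The fed plants were wild-type Columbia (Col-0) plants grown in soil for 21 days at 22 °C in 16 h of light and 8 h of dark, each then enclosed with 25 adult female western flower thrips (Frankliniella occidentalis) that had been starved for 3 h. The untreated plants had the same ecotype, age and growth conditions and carried no thrips. The tissue is given both as leaves and as the whole plant without the root. Each RNA was a pool of replicate experiments with 30 to 70 plants per sample, and the fed RNA was labelled with Cy5 and the untreated RNA with Cy3 on every array of the series, with no dye swap. The other arrays of the series hold 2 h, 5 h and 10 h of feeding. With 1 array per time there was no replicate of the comparison and no test was made: the error beside a ratio is the SD between spots of 1 clone, which covers printing and hybridization within the array and not the spread between plants. Dye and feeding cannot be told apart. The arrays were printed with genes that had been selected as stress related, so shares of clones describe this selection and not the genome.

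Thrips pierce single leaf cells and empty them, so a plant under attack carries many small feeding wounds. Wounded Arabidopsis leaves make jasmonate, a lipid hormone that switches on defence proteins, enzymes of hormone turnover and the glucosinolate and glucosidase systems that release toxic products from damaged cells. Growth and photosynthesis genes are commonly lower in leaves that mount such a defence.

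After a day of feeding, 140 of the 718 clones (19.5%) were at least 2-fold higher in fed plants and 115 (16.0%) were at least 2-fold lower, 35.5% together. A clone was counted when its mean ratio was at least 2-fold, its good spots had the same sign and its brighter channel stood above background in at least 1 of its spots, background being the local background plus 2 of its SDs. The higher side reached further: 55 clones were at least 4-fold higher and 26 at least 4-fold lower, 22 were at least 8-fold higher and 2 at least 8-fold lower by ratios whose fed channel was not above background, and 7 were at least 16-fold higher and 0 lower. On the log2 scale the ratios ran from -3.09 to 5.41 with an SD over clones of 1.28, against a median spot SD within a clone of 0.11 and a 90th percentile of 0.30. In 19 of the higher clones the untreated channel was not above background, and in 7 of the lower ones the fed channel was not, so that those ratios are bounds. By brightness, the 239 brightest clones held 57 higher and 36 lower, the next 239 held 50 and 37, and the 240 dimmest held 33 and 42, so that higher clones outnumbered lower ones except among the dim.

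**Figure D1:**
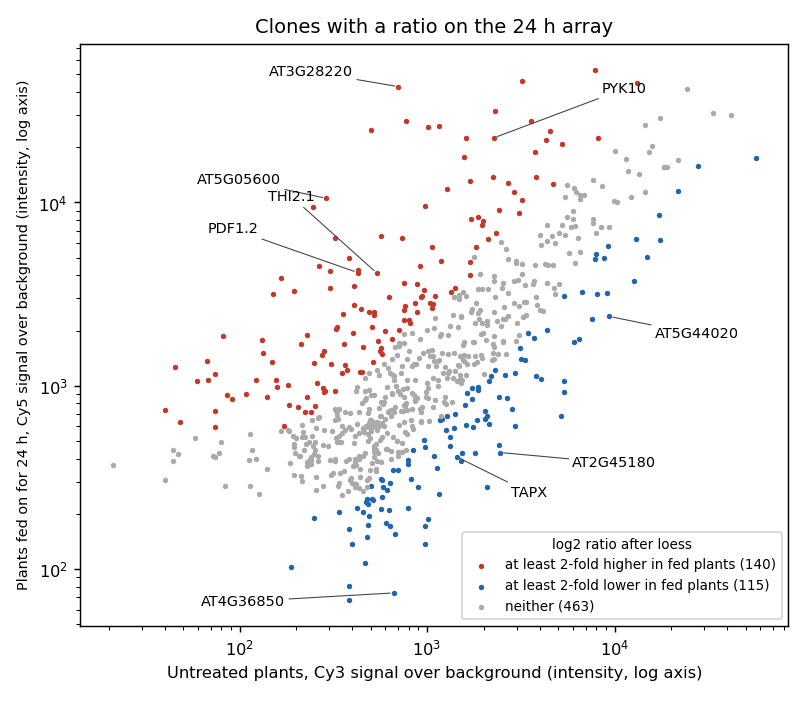
Signal over local background of the 718 clones on the 24 h array, fed plants (Cy5, vertical log axis) against untreated plants (Cy3, horizontal log axis). The 140 clones counted higher and the 115 counted lower were called on the ratios after loess normalization, which the plotted signals precede, and lie above and below the main band from the dimmest to the brightest clones.

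The zero of these ratios rests on the clones themselves. Loess set the median clone to -0.02 on the log2 scale, while the 80 lambda DNA spots then had a median of -1.10 and the 54 spots of alpha tubulin, a component of the cytoskeleton, a median of -1.67, all of them good spots. Relative to lambda DNA the median clone stood at 1.14, and relative to alpha tubulin at 1.73. Either control adds 1 fixed amount to every median-centred ratio, so only lower clones can change sign: of the 115, 93 stayed below 0 relative to lambda DNA and 41 relative to alpha tubulin. A lower clone is therefore lower than most clones of the array, and for many of them whether the RNA itself was scarcer in fed plants depends on the zero chosen. The alpha tubulin spots had their lowest median of the series at 24 h, with -0.89 at 2 h, -1.28 at 5 h and -0.90 at 10 h.

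**Figure D2:**
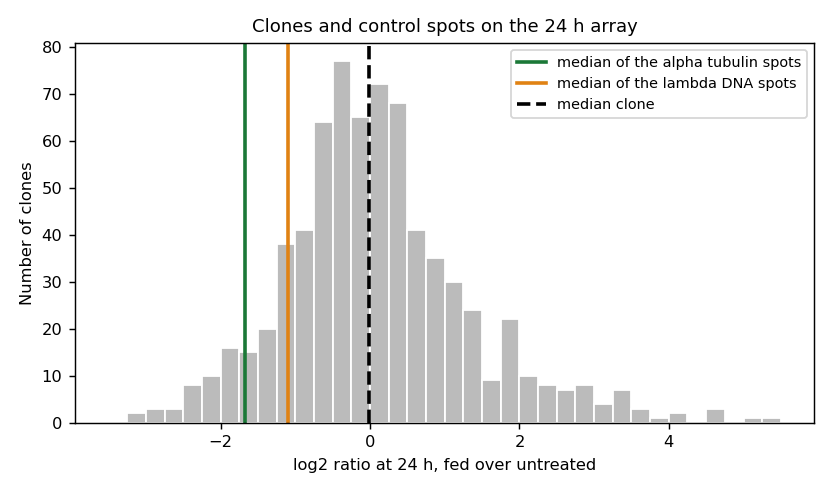
Distribution of the log2 ratios of the 718 clones at 24 h, fed over untreated, in bins of equal width, with vertical lines at the median clone (-0.02), the median lambda DNA spot (-1.10) and the median alpha tubulin spot (-1.67). Both control medians lie within the lower shoulder of the clones.

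Gene names were given for 415 clones, of which 213 had a value at 24 h, 44 counted higher and 31 counted lower. Among the clones with no name, 96 were higher and 84 lower, and 8 of the 12 highest clones were of this kind. The highest of them, RAFL06-11-F24, had a log2 ratio of 5.15 ± 0.05 (SD over spots), and RAFL09-06-O22 had 4.75 ± 0.33. On the lower side RAFL09-18-F04 had -2.97 ± 0.10 and RAFL06-09-P22 had -2.84 ± 0.18, both with the fed channel above background.

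The highest named gene was AT3G28220, which encodes a TRAF-like protein. Its fed signal over background was 42876 and its untreated signal 703, and its spots gave log2 ratios of 5.66 and 5.16. These raw signals still carry the difference in brightness between the dyes, and the normalized mean was 5.41 ± 0.36, which is 42.5-fold. It had been high at every earlier time, at 3.68, 4.46 and 4.07 after 2, 5 and 10 h, with the untreated channel not above background at 10 h.

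The next highest named gene belonged to the jasmonate making and breakdown list. AT5G05600, an oxygenase that hydroxylates jasmonate and so removes it, had a fed signal of 10541 and an untreated signal of 290, with spots at 4.76 and 4.66 and a mean of 4.71 ± 0.07, or 26.2-fold. FAMT, a farnesoic acid methyltransferase of the same family as the enzyme that methylates jasmonate, had spots at 3.13 and 3.30 with a fed signal of 6586 and an untreated signal of 570. OPCL1, a ligase that prepares the jasmonate precursor for shortening, was 2.82-fold higher at 1.49 ± 0.04. The spots of each of these 3 genes lay close together and all were above 2-fold. AT2G38240, another jasmonate oxygenase, had 0.37 at 24 h, after 1.49 at 2 h and 3.06 at 5 h, and its untreated channel was not above background at any time. The jasmonate list and the lists below were chosen with earlier results of these data known. Their shares therefore describe the members picked and not such genes at large. Of the 5 jasmonate list members printed, 4 had a value. Of these 3 (75%, beside 19.5% of all clones) were higher and none (beside 16.0%) lower. The median log2 ratio was 2.35 beside -0.02 for all clones. FAMT is in the list by family only, and both the count and the median include it, at 3.22. Without FAMT the values were 4.71, 1.49 and 0.37. The middle one lies below the median of 1.76 of the antimicrobial list.

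Antimicrobial proteins held a pair of genes that were high at 24 h and not before. PDF1.2, a plant defensin and the usual marker of the branch of jasmonate signalling that works with ethylene, had a fed signal of 4145 and an untreated signal of 426, with spots at 2.84 and 2.81. Its ratio had been -0.31 at 5 h and -0.58 at 10 h, with no good spot at 2 h. THI2.1, a thionin that damages microbial membranes, had a fed signal of 4122 and an untreated signal of 539, with spots at 2.63 and 2.47. Both genes were above 2-fold at 24 h and on no earlier array that measured them, THI2.1 having had -0.90, -0.02 and -0.54 after 2, 5 and 10 h. With loess fitted per print block (print-tip loess) their 24 h values were 1.84 for PDF1.2 and 1.55 for THI2.1. AT2G43530, a defensin-like protein, was at least 3.27-fold higher by the main processing, with its untreated channel not above background. Its ratio was 1.35 with print-tip loess, 1.67 with no background correction and 2.43 with pixel means. The chitinase gene CHI had 1.45 on both of its spots. The thionin-like gene AT1G66100 had -0.44 and the thaumatin-like gene AT1G75800 had -0.22. In all, 4 of the 6 members with a value (66.7%, beside 19.5% of all clones) were higher and none (beside 16.0%) lower, of 12 printed. Their median was 1.76.

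ER bodies are compartments in the cells of Arabidopsis and its relatives that store beta-glucosidases, and they form in intact seedlings and roots and, in rosette leaves, after wounding. AT1G52000, a jacalin-type lectin, had a fed signal of 26224 and an untreated signal of 1151, with spots at 3.84 and 4.23 and a mean of 4.04 ± 0.28, or 16.4-fold. AT1G54010, a GDSL lipase-like protein of the same complexes, had spots at 4.09 and 2.87, so that its mean of 3.48 carried the widest spot SD on the array, 0.86, and was 2.80 with pixel means in place of medians. PYK10, the main ER body glucosidase of seedlings and roots, had a fed signal of 22506 and an untreated signal of 2264, with spots at 2.91 and 2.80. PYK10 thus had a 7.24-fold ratio and a strong untreated signal in tissue that the labels give as free of roots. It was the one root marker among the named clones, and the part of root tissue in its level was not tested. NAI2, which is needed to form ER bodies, had 1.97 ± 0.17, the lectin JAL34 had 1.94 ± 0.15 and the glucosidase BGLU22 had 1.82 ± 0.10. BGLU44, BGLU16 and BGLU33 had 0.11, -0.26 and -0.41, and the lectins AT1G78830 and AT1G78850 had -0.59 and -0.68. Of 14 members, all with a value, 6 (42.9%, beside 19.5% of all clones) were higher and none (beside 16.0%) was lower. The median was 0.34, so the high ratios belonged to a few members rather than to the whole list. With median centring in place of loess the list's median was 1.36.

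Among the oxidative enzymes, the class III peroxidases of the cell wall were mostly not measured: 33 were printed and 7 had a value. AT5G64120 had a fed signal of 1882 and an untreated signal of 230, with spots at 2.45 and 2.49. AT4G37520 had 1.64 ± 0.02 and AT2G37130 had 1.14 ± 0.05, or 0.95 with no background correction, and PRX52 was at least 2.00-fold higher with its untreated channel not above background. AT5G40150 was lower, at least 3.68-fold from a single spot whose fed channel was not above background, and its ratio was -0.97 with print-tip loess. The measured peroxidases thus held 4 higher members (57.1%, beside 19.5% of all clones) and 1 lower (14.3%, beside 16.0%), with a median of 1.14. The berberine bridge enzyme-like proteins are secreted oxidases, several of which act on sugar or indole compounds in defence. AT1G26380 had spots at 2.17 and 2.18, with a fed signal of 2050 and an untreated signal of 328, and was 1.29 with print-tip loess. AT4G20840 and AT4G20830 had 1.52 and 1.02, the second of them 0.88 with median centring. All 5 printed members had a value and their median was 1.02. Of them 3 (60%, beside 19.5% of all clones) were higher and none (beside 16.0%) was lower. AT1G26380 was at 0.72 and 0.34 after 5 and 10 h, while AT4G20840 was at 2.05, 2.06 and 1.73 after 2, 5 and 10 h.

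**Figure D3:**
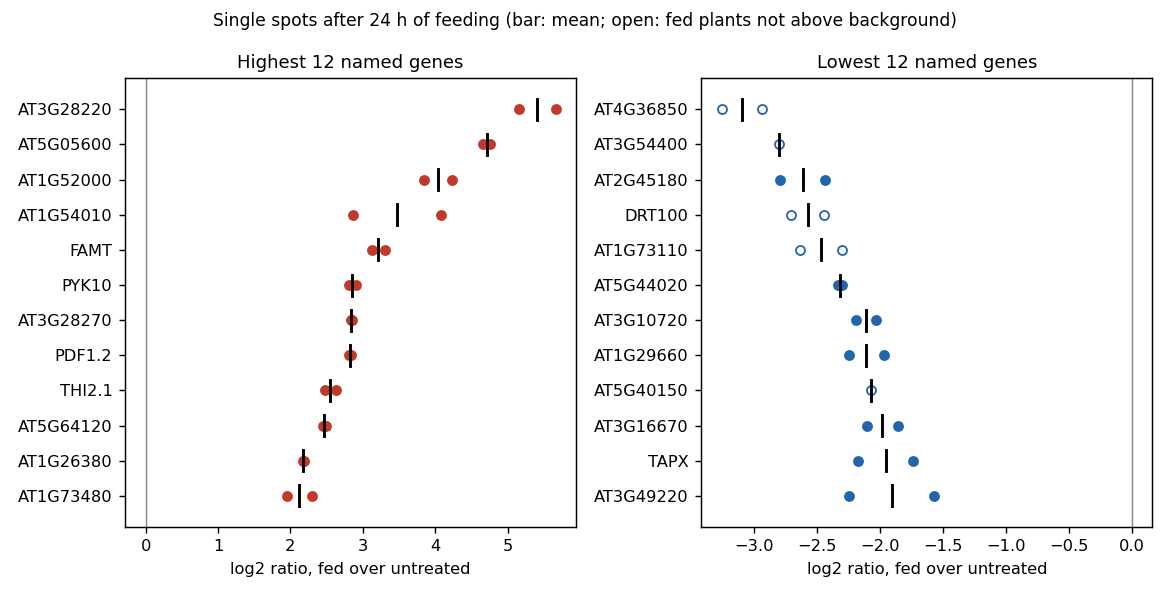
Log2 ratios of single spots, fed over untreated at 24 h, of the 12 highest (left panel) and 12 lowest (right panel) named genes that were counted; black bars are the clone means and open circles mark clones whose fed channel was not above background. The spots of AT1G54010 lie farthest apart, and 5 of the 12 lowest genes have open circles.

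Enzymes that remove reactive carbonyls, the toxic aldehydes and ketones formed when membrane lipids oxidize, were represented by 4 measured members of 9. ALDH7B4, an aldehyde dehydrogenase induced by many stresses, had a fed signal of 3642 and an untreated signal of 750, with spots at 2.17 and 1.75. AER, an alkenal reductase, had 1.41 ± 0.06. AT1G60730 and AT5G17000 had 0.96 and 0.02. That leaves 2 higher (50%, beside 19.5% of all clones), none lower (beside 16.0%) and a median of 1.18. Of the phenylpropanoid genes, which lead to lignin and phenolic compounds, CCR2, a cinnamoyl-CoA reductase, had spots at 1.76 and 1.95, and the other 3 with a value lay between -0.63 and 0.31. Thus 1 of the 4 with a value (25%, beside 19.5% of all clones) was higher and none (beside 16.0%) lower.

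The measured clones of the abscisic acid, drought and cold list fell short of 2-fold either way at 24 h by the main processing. Spots outside the clones, which the list does not count, gave 0.12 for RD29A and -1.45 for ERD8, an early dehydration gene. KIN2, a small hydrophilic protein induced by cold and abscisic acid, had spots at 0.82 and 0.13 and a mean of 0.48, and with pixel means in place of medians it was counted higher, at 1.29. The dehydrin COR47 had -0.74, RD2 -0.71 and the lipocalin TIL -0.44. Of 11 printed members 4 had a value and none was counted in either direction, beside 19.5% higher and 16.0% lower of all clones. Their median of -0.57 was 0.94 relative to lambda DNA and 1.52 relative to alpha tubulin. Genes for calcium-binding proteins and transcription factors had a list median of 0.03, close to the median clone, with 11 of 27 measured. None (beside 19.5% of all clones) was higher and 2 (18.2%, beside 16.0%) were lower. WRKY53, a regulator of defence and leaf ageing, had 0.40, EIN3, the master regulator of ethylene responses, had -0.14 and BZIP60, a regulator of the unfolded protein response, had 0.45. The calmodulin-like gene AT2G41090 had -1.21 and AT4G24060, a Dof transcription factor, had -1.36 from 1 spot, and both were above 0 on either control scale. Neither count was stable on the clones' own zero: AT2G41090 was -0.16 with print-tip loess, and AT4G24060 was -0.56 with median centring, -0.06 with pixel means and -0.04 with all spots kept.

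Proteases and leucine-rich repeat proteins held both higher and lower members. The subtilase gene ATSBT5.2 had 1.47 ± 0.09 and AT1G03220, an aspartyl protease-like protein, had 1.02 ± 0.08, or 0.89 to 0.96 under 4 alternatives. AT3G54400, another aspartyl protease, was at least 4.05-fold lower from 1 spot with its fed channel not above background. That bound holds for the main processing only. The ratio was -1.16 with print-tip loess, -1.24 with all spots kept, -1.82 with median centring and -4.5 with plain background subtraction. The subtilase AT2G05920 and the aspartyl protease AT1G66180 had -1.66 and -1.31. The last pair were at 0.03 and 0.31 relative to alpha tubulin, and at -1.07 and -2.27 with print-tip loess. Of 9 measured proteases 2 (22.2%, beside 19.5% of all clones) were higher and 3 (33.3%, beside 16.0%) were lower, with a median of 0.56; counts this small are not set apart from all clones. In the leucine-rich repeat list, whose members include receptors of the immune system, AT2G34930 had spots at 1.72 and 1.11. The other 4 that were counted were lower. DRT100 was at least 5.95-fold lower by the main processing, and its ratio was -2.04 with no background correction and -3.19 with plain background subtraction. AT3G20820, AT1G61180 and AT3G02880 had -1.69, -1.08 and -1.02. With print-tip loess AT1G61180 was -0.86 and AT3G02880, from 1 spot, -0.72. Of the 11 measured members 1 (9.09%, beside 19.5% of all clones) was higher and 4 (36.4%, beside 16.0%) were lower. The list's median was -0.74, and it was 0.36 relative to lambda DNA and 0.95 relative to alpha tubulin.

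**Figure D4:**
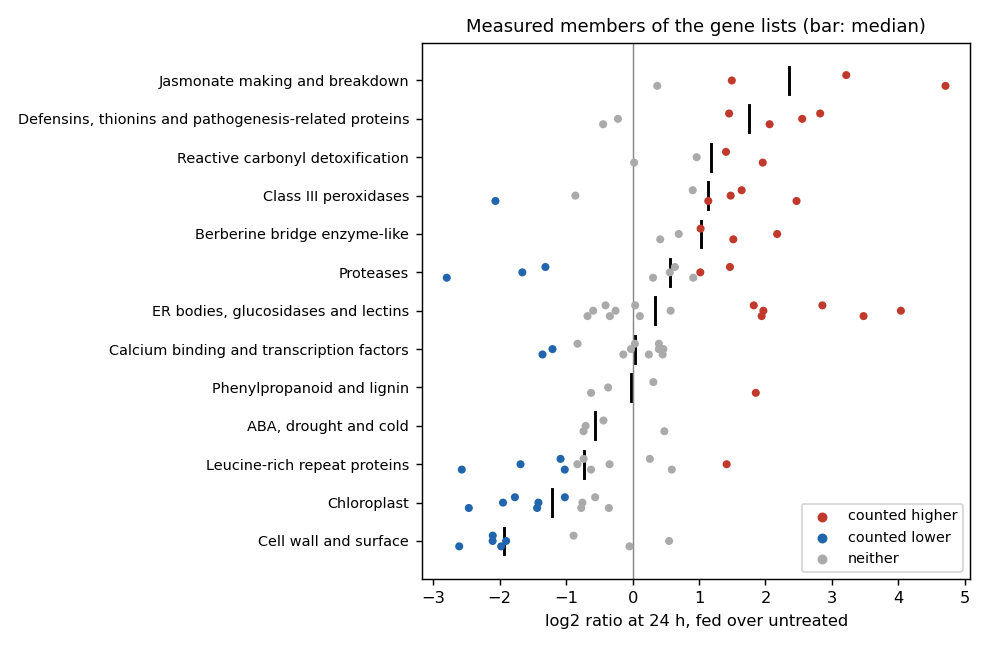
Log2 ratios at 24 h, fed over untreated, of the measured members of 13 gene lists, ordered by median (black bar), with members counted higher in red, lower in blue and neither in grey. The jasmonate list leads with a median of 2.35 only with FAMT included. Without FAMT its middle value is 1.49, below the median of 1.76 of the defensin list. The cell wall and chloroplast lists, with medians of -1.94 and -1.22, stand at the bottom.

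The lowest named genes came largely from the cell wall and surface and from the chloroplast. AT4G36850, a PQ-loop membrane protein, had spots at -3.25 and -2.94, a fed signal of 74 that was not above background and an untreated signal of 664. It was at least 5.52-fold lower by the main processing. Its ratio was -1.95 with no background correction and -4.77 with plain background subtraction. AT2G45180, a lipid-transfer-type protein, had a fed signal of 432 and an untreated signal of 2451, with spots at -2.79 and -2.43. The pectin methylesterases AT3G10720 and AT3G49220, which modify wall pectin, had -2.11 ± 0.11 and -1.90 ± 0.47, and AT1G29660, a GDSL lipase, had -2.11 ± 0.20. AT3G16670, a small secreted protein of the pollen Ole e I family, had -1.98 ± 0.17. The cell wall and surface list was also chosen with earlier results of these data known. Of its 8 measured members, 5 (62.5%, beside 16.0% of all clones) were lower and none (beside 19.5%) higher. Their median of -1.94 was -0.55 relative to lambda DNA and 0.03 relative to alpha tubulin. AT5G44020, an acid phosphatase family protein, had a fed signal of 2387 and an untreated signal of 9396, with spots at -2.30 and -2.33.

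All 10 members of the chloroplast list had a value and all 10 were below 0, beside 362 of the 718 clones. Of them 6 (60%, beside 16.0% of all clones) were counted lower and none (beside 19.5%) higher. The list was chosen with earlier results of these data known, so the shared sign describes these members and not chloroplast genes at large. Their median of -1.22 was -0.06 relative to lambda DNA and 0.53 relative to alpha tubulin. AT1G73110, related to rubisco activase, was at least 4.18-fold lower by the main processing, with its fed channel not above background. Its ratio was -1.7 with print-tip loess, -1.66 with all spots kept and -3.67 with plain background subtraction. TAPX, the thylakoid ascorbate peroxidase that removes hydrogen peroxide beside photosystem I, had a fed signal of 409 and an untreated signal of 1440, with spots at -1.73 and -2.17. PSAE-1, a subunit of photosystem I, had spots at -1.80 and -1.74, with a fed signal of 686 and an untreated signal of 2079. FUG1, a chloroplast translation initiation factor, had -1.44 ± 0.08 and -2.04 with print-tip loess, AT2G21340, a relative of the salicylate transporter EDS5, had -1.42 ± 0.26, and AT2G34590, a subunit of chloroplast pyruvate dehydrogenase, had -1.02 ± 0.18 and -0.71 with pixel means. None of the leaf, flower, guard cell or trichome markers that were looked for is among the named clones, so the labelled tissue could be read only from PSAE-1, which stood above background in both RNAs, and from the root marker PYK10, which did so too although the labels exclude the root. Fewer green cells and less of these RNAs per cell cannot be told apart in such RNA. Of the 31 named genes counted lower, 5 stayed at least 2-fold lower relative to lambda DNA, AT4G36850, AT2G45180, DRT100, AT5G44020 and AT1G29660, and none relative to alpha tubulin.

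The 24 h ratio was set against the mean of the 2, 5 and 10 h ratios for the 607 clones measured on all 4 arrays that were bright enough for it. At 24 h 44 clones (7.25%) lay at least 1 log2 unit above the earlier mean and outside the earlier range, and 38 (6.26%) lay as far below it, 13.5% together. Whether the arrays share untreated RNA is not given, the arrays differ in slide and time at once, and no test was made. Per the image names in the file headers the 24 h array lay on the same slide as the 10 h array, and the 2 h and 5 h arrays on another.

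THI2.1 stood farthest above its earlier mean, by 3.04 log2 units. PYK10 came next, by 2.31, with -0.27, 0.42, 1.50 and 2.86 after 2, 5, 10 and 24 h, and so had a higher value at each later time. BGLU22, its relative, followed the same order with -0.58, 0.41, 1.55 and 1.82. SFP1, a sugar transporter that is high in ageing leaves, had -0.53, -0.59, -0.19 and 1.16. FDH, the mitochondrial formate dehydrogenase, had -0.53, -0.55, -0.28 and 1.00, with a fed signal of 12640 and an untreated signal of 4707 at 24 h, and its 24 h value was 0.65 with print-tip loess. PPDK, which makes phosphoenolpyruvate and serves in moving nitrogen out of ageing leaves, had -0.81, -1.52, -1.68 and 0.16, so that it was lower in fed plants at 5 and 10 h and near 0 at 24 h. AT3G28940, of the AIG2-like family, had 0.10, 0.64, -0.22 and 1.43, the last of which was 0.43 with print-tip loess. AT3G28220, already high, lay 1.34 above its earlier mean.

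Of the named genes farthest below their earlier mean, all but AT3G10720 had been above 2-fold on at least 1 earlier array. KIN2 lay 1.85 log2 units below its earlier mean, with 1.74, 1.77 and 3.47 after 2, 5 and 10 h and 0.48 after 24 h, the untreated channel not being above background at 10 h. AT1G66760, a MATE-type efflux carrier, had 2.49, 2.53, 0.68 and 0.28, its untreated channel not being above background at 24 h. AT2G34930, the leucine-rich repeat gene, was at 2.52, 3.47 and 2.16, the last with its untreated channel not above background, and was still 2.67-fold higher at 24 h. AT5G62350, of the invertase and pectin methylesterase inhibitor family, had 1.34, 1.12 and 1.27 and then -0.05. AT1G78850, a mannose-binding lectin, had 1.49, 1.22, -0.01 and -0.68, and AT1G66100 had 0.62, 0.92, 1.58 and -0.44, its 24 h value being 0.10 with median centring and 0.59 with pixel means. AT4G36850 had 1.48 at 2 h and -0.65 at 5 h. Its fed channel was not above background on the later arrays, where it was at least 6.10-fold lower at 10 h and at least 5.52-fold lower at 24 h, so the order of those times is not known. AT3G10720 had 0.25, -0.84, -1.16 and -2.11.

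**Figure D5:**
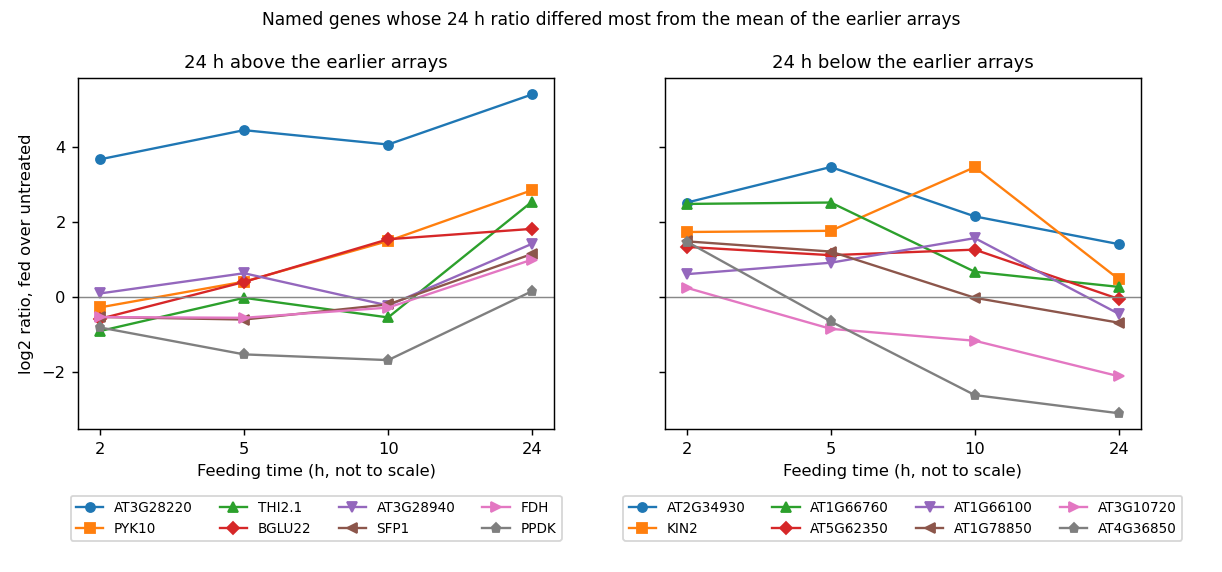
Log2 ratios, fed over untreated, after 2, 5, 10 and 24 h of the 8 named genes whose 24 h value stood farthest above (left panel) and the 8 whose value stood farthest below (right panel) the mean of the earlier arrays; each point is 1 array. THI2.1 is near or below 0 until 10 h and at 2.55 at 24 h, while KIN2 is at 3.47 at 10 h and 0.48 at 24 h.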

How the data were processed

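Values were the authors' deposited ScanArray Express output: per the file headers, the foreground and local background intensity of each spot in Cy5 and Cy3, in scanner units, the percent of saturated pixels and a quality flag. The authors' deposited value table holds natural log ratios, found by its slope against the scanner values (0.962 at 24 h, r = 0.994, median 0.861); the sources used here do not give its normalization. Median intensities were background-corrected (limma 3.58.1 in R 4.3.3, normexp, offset 50), loess-normalized within the array (span 0.3, 4 iterations, control and poorly flagged spots at weight 0), and good spots averaged per clone. With 1 array per time, the spread between plants was not measured. The median foreground at 24 h was 1325 in Cy5 over a background of 211 and 956 in Cy3 over 126, with 1 fed spot at the ceiling of 65535. Where 1 channel was not above background, a bound was formed from each channel after loess and Aquantile, against the dimmest signal above background, and is open to dye bias. Bounds hold for the main processing only and were not formed under the alternatives. The label text mentions further arrays of the same RNA, not analysed here. The steps were tested on simulated data.

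Members and gene lists were chosen with earlier results of these data known. Named genes were the 12 highest and 12 lowest counted at 24 h, the 8 largest differences each way from the earlier mean, members of the lists, and genes counted in opposite directions. Of the 416 probes in the platform annotation 415 matched a RefSeq entry by identifier, and of the value table's 1196 probes 780 are unnamed here. Alternatives covered background correction, normalization, spot filters and the value table.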

Additional observations from a re-analysis of the deposited data

Results flagged for a closer look

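Clones counted in 1 direction at 24 h and in the other on an earlier array numbered 4, and these differences were not tested. RAFL04-16-B18 had -1.74 at 24 h, with a fed signal of 354 and an untreated signal of 1126, after -0.98, 2.72 and 4.59 at 2, 5 and 10 h. RAFL04-16-I15 had 1.08 at 24 h after -1.56, -0.53 and -0.34. AT4G36850 had -3.09 at 24 h after 1.48 at 2 h, and its fed channel was not above background at 24 h. The peroxidase gene AT2G37130 had 1.14 at 24 h after -1.09 at 2 h.

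The arrays also carry 9 gene names on spots outside the RAFL clones, 18 spots in all, of which 6 spots of 3 genes were good at 24 h. RD29A, a drought and cold gene, had a log2 ratio of 0.12 at 24 h, after 0.21, 1.51 and 1.77 at 2, 5 and 10 h. ETR1, an ethylene receptor, had -0.09, and ERD8, an early dehydration gene, had -1.45, with a fed signal of 434 and an untreated signal of 1091. These were set aside from the clones because their names do not carry the RAFL prefix. A further 10 spots named by numbers had no good spot at 24 h.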

How the results depend on the processing

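The higher and lower counts depended on the zero of the ratios. Relative to lambda DNA 394 clones were higher and 15 lower, relative to alpha tubulin 547 and 3, and with the deposited ratios 417 and 19. At a threshold of 3-fold, chosen after seeing the data, they were 83 and 54. The other alternatives gave 121 to 176 higher and 97 to 128 lower. Against the earlier arrays, 24 h minus 10 h alone gave 79 higher clones; alpha tubulin gave 170 higher and 2 lower, and the deposited ratios 67 and 20. Of 780 values of 61 named genes under alternatives, 20 changed sign among genes counted at 24 h, all counted lower, and 13 among 4 genes not counted (AT1G78850, AT1G66100, AT5G62350 and AT1G66760). The 780 include values that repeat the main value and could not change. These were 53 with both channels above background, 61 with no filter on dim spots and 56 with at least 2 good spots. With the zero kept on the clones, 11 of the 55 counted genes fell short of 2-fold under at least 1 alternative. That set differs from the counted genes that changed sign. Relative to alpha tubulin the sign changes were AT5G40150 (0.29), AT3G16670 (0.15), AT4G24060 (1.18), AT2G34590 (0.69), AT2G41090 (0.61), AT1G61180 (0.54), AT2G21340 (0.27), FUG1 (0.37), AT3G02880 (0.67), AT1G66180 (0.31) and AT2G05920 (0.03). Relative to lambda DNA they were AT4G24060 (0.59), AT2G34590 (0.10), AT2G41090 (0.03) and AT3G02880 (0.08), and with the deposited ratios AT4G24060 (0.54), AT2G34590 (0.06), AT2G41090 (0.12), AT1G61180 (0.01) and AT3G02880 (0.02). The cause was not tested. No paired analysis was possible because only 1 array exists here for a feeding time. Promoter motifs were not run because no sequence was used here.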

Other observations

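Further groups were chosen after their values were seen. Glucosinolates are the mustard oil precursors of Arabidopsis, and 2 named genes of this kind were picked, both higher beside 19.5% of all clones; with median centring 1 of them was. AT2G25450, which hydroxylates a glucosinolate side chain, had -0.30, 0.39 and 1.08 after 2, 5 and 10 h and 1.54 ± 0.04 at 24 h. GTR1, a glucosinolate transporter, had 1.06 ± 0.04, with a fed signal of 3238 and an untreated signal of 1348. Of 10 genes of amino acid and carbon breakdown, 6 had a value and 2 (33.3%, beside 19.5% of all clones) were higher, or 1 with print-tip loess or plain background subtraction: FDH, and AT4G33150, of lysine breakdown, at 1.26 with its untreated channel not above background. AlaAT1, an alanine aminotransferase, had 0.76, and the leucine breakdown genes MCCA and IVD had 0.05 and -0.44. The cytochromes P450 CYP71B6, CYP71B22 and CYP71B28 had 0.75, 0.59 and 0.03. Of 11 glycosyltransferases 3 had a value and none was counted, beside 19.5% higher and 16.0% lower of all clones.

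Of the remaining highest named genes, AT3G28270, an AT14A-like protein, had 2.84 ± 0.01 at 24 h after 1.73, 2.04 and 1.74. The alpha/beta hydrolase AT1G73480 had 2.12 ± 0.24 at 24 h.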
